A study of Homo sapiens with 6 samples.

Results

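The genes described here are the protein-coding genes of human chromosome 19 whose symbol is ZNF followed by a number. They were chosen by chromosome, biotype and symbol alone, and numbered 249 among 58735 genes listed, or among 19951 protein-coding genes. The samples were HCT116SCs, cells of the colorectal cancer line HCT116 that had been sorted magnetically for CD44 and CD326 (EPCAM) and kept as tumour spheres in serum-free medium with EGF, bFGF and B27. They were transfected with a negative control siRNA (NC siRNA, 3 libraries, labelled wild type) or with an siRNA against PSCA (siPSCA, 3 libraries, labelled PSCA knockdown) and taken for RNA sequencing 48 h later. All 6 libraries therefore came from 1 cell line that had been sorted, cultured and transfected in the same way, and siRNA lowers a transcript without removing the gene. The labels do not say which siPSCA sequence was used or whether the replicates were separate cultures, so the p-values measure only the spread between these libraries, which may be technical.

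Genes of this class encode proteins with an array of C2H2 zinc fingers, small zinc-binding loops that each contact a few bases of DNA, joined by a short conserved linker. Most of those on chromosome 19 also carry a KRAB domain at the amino end, which binds the co-repressor TRIM28 (KAP1). TRIM28 brings the histone methyltransferase SETDB1 and heterochromatin proteins to the bound site, a machinery known for silencing transposable elements. The genes arose by repeated duplication in tandem and lie in clusters along the chromosome, so neighbours are often close relatives.

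A KRAB A-box pattern was found in the translated coding sequence of 212 of the 249 genes (85.1%), allowing 2 mismatches. The number of C2H2 fingers ranged from 0 to 36 with a median of 12, and the table of the submitters lists 239 of the genes under the C2H2 family. The coding sequence of a finger repeat shows how the members differ in base composition. Only fingers that are followed by a linker of the usual form and lie within 1 exon were considered, and the middle one of these (the later one of 2) is given for the 3 members that fell most and the 3 that rose most among those that have such fingers. It need not lie in the middle of the whole array. Positions are in GRCh38, the sequence runs 5′ to 3′ on the coding strand of the GENCODE 29 transcript, and capitals mark the last 15 bases, which encode the linker to the next finger. The first 3 are from genes that fell with siPSCA, namely ZNF160 (chr19:53068758-53068835, minus strand), ZNF699 (chr19:9295814-9295891, minus strand) and ZNF808 (chr19:52554621-52554698, plus strand). The last 3 are from genes that rose, namely ZNF358 (chr19:7520203-7520280, plus strand), ZNF865 (chr19:55615269-55615349, plus strand) and ZNF787 (chr19:56088809-56088886, minus strand). All 6 lie in coding exons.
ZNF160: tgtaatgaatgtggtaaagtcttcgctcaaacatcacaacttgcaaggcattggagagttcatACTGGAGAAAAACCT
ZNF699: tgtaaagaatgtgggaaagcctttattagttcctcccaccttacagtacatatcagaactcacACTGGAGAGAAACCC
ZNF808: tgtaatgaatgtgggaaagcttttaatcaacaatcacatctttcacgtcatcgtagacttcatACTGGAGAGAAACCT
ZNF358: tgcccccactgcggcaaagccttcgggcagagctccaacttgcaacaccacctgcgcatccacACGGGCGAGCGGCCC
ZNF865: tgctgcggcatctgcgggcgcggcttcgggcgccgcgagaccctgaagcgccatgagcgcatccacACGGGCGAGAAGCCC
ZNF787: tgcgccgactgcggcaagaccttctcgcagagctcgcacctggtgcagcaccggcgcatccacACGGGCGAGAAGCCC

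The finger of ZNF160 held 39.7% G and C, that of ZNF699 42.3% and that of ZNF808 37.2%. Those of ZNF358, ZNF865 and ZNF787 held 67.9%, 72.8% and 69.2%. In the linker, 6 to 8 of the 15 bases were G or C in the first 3 genes and 11 to 13 in the last 3. Over all members with such a finger, the median was 42.3% among 41 members called lower in siPSCA (range 35.9% to 59.0%) and 67.9% among 10 called higher (range 61.5% to 72.8%). It was 44.9% among 61 members not called and 42.3% among 120 not tested, so a low value was not particular to members that fell.

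Expression was given as FPKM, reads scaled to gene length and to the total of the library, and the reads behind each value could be recovered. Between 16099716 and 17302219 reads lay on genes in each library, and between 39654 and 49971 of them on the chromosome 19 ZNF genes. The targeted gene, PSCA, was covered by 4, 12 and 15 reads in NC replicates 1 to 3 and by 9, 9 and 7 in siPSCA replicates 1 to 3, so its reads do not separate the groups, which follow the labels. Of the sorting markers, CD44 fell from 82.6 ± 4.36 to 60.7 ± 1.51 FPKM (SD, n = 3 each; log2 fold change -0.44, adjusted p = 0.00193 by limma), while EPCAM was at 107 ± 14.4 and 95.0 ± 2.10 FPKM and did not pass the test (adjusted p = 0.199). Of the epithelial genes, CDH1 fell from 30.1 ± 2.04 to 19.5 ± 0.610 FPKM (-0.60, adjusted p = 0.00134 by limma), KRT8 rose from 178 ± 3.26 to 208 ± 5.52 FPKM (0.22, adjusted p = 0.00848) and KRT18 did not pass (-0.14, adjusted p = 0.165). All were at 18.8 FPKM or more in every library. With a trend on GC content and length removed CDH1 was at -0.62 and CD44 at -0.32, and both still passed. KRT18 was then lower as well (-0.49, adjusted p = 0.0227 by limma). In the same fit KRT8 (-0.07, adjusted p = 0.427) and EPCAM (-0.13, adjusted p = 0.239) did not pass. PTPRC (leukocytes) and PECAM1 (endothelium) stayed under 0.16 FPKM, and the fibroblast collagen gene COL1A1 was at 3.35 to 6.51 FPKM. NC replicate 3 stood apart from the other NC libraries in how expression depended on base composition. The Spearman correlation between exonic GC content and a gene's deviation from the mean of its group, over all tested genes, was 0.49 and 0.44 in NC replicates 1 and 2 and -0.57 in NC replicate 3, and in the siPSCA libraries it was 0.31, 0.11 and -0.39. Some results below are therefore also given without NC replicate 3, and all others include it.

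Detection came first, because many of these genes were silent. No read was recovered in any library for 55 of the 249 members (22.1%), against 14.8% of all protein-coding genes. A further 21 members never had more than 3 reads, the level below which a count was treated as the floor, 14 exceeded it in some libraries only, and 36 exceeded it in every library but had a mean FPKM under 1. The remaining 123 (49.4%, against 55.5% of protein-coding genes) were tested. Counts and medians given below for tested members therefore say nothing of the other 126. Levels were low even among the tested members, with a median of 3.08 FPKM against 5.94 FPKM over all tested genes, and only 3 members exceeded a mean of 10 FPKM.

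The silent members lay side by side. Of the 55 without a read, 44 fell into 10 runs of at least 2 members with no ZNF member that had a read between them, and 11 stood alone. The longest run held 11 genes from ZNF43 to ZNF730, and 7 genes from ZNF93 to ZNF66 formed another in the same stretch of the short arm. ZNF93, which represses LINE-1 elements, was among the latter. On the long arm, the 7 neighbours ZNF582, ZNF583, ZNF667, ZNF471, ZNF470, ZNF71 and ZNF835 had no read, as had the 4 genes from ZNF790 to ZNF568 and the 4 genes from ZNF418 to ZNF135. KRAB letters were found in 50 of the 55. In the RefSeq promoter windows (GRCh38.p14, 250 bases before to 50 after the start), the dinucleotide CG occurred a median of 17 times in the 48 silent members with an entry and 22 times in the 108 tested members with one, against 14 over all 27305 promoters listed. For 7 of the 55, over 20% of the 75-base stretches of the gene recur elsewhere in the transcripts, so reads of these could have been lost or assigned to a relative.

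Several members known as targets of promoter methylation in tumours were among the silent ones. Of 8 such genes, ZNF331, ZNF382, ZNF471, ZNF582 and ZNF677 had no read in any library. For ZNF154 the reads numbered 15, 25 and 19 with NC siRNA against 8, 9 and 17 with siPSCA, and the groups overlapped. For ZNF671 they numbered 17, 13 and 6 against 5, 1 and 3, which did not overlap, but its FPKM stayed under 0.29 throughout and the gene was not tested. ZNF132 was the only gene of the list that was tested. Its FPKM was 1.10, 1.06 and 0.97 with NC siRNA and 1.36, 1.52 and 1.40 with siPSCA, higher in all 3 siPSCA libraries, yet it did not pass (log2 fold change 0.25 ± 0.09, SE, adjusted p = 0.0580). No methylation was measured here.

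Whether PSCA knockdown changed these genes was asked with the linear model of limma on log2(FPKM + 1), fitted to the 13796 genes whose FPKM averaged 1 or more over the libraries. A gene was called at an adjusted p under 0.05 (Benjamini-Hochberg over all genes), and fold changes are on the log2(FPKM + 1) scale, which understates changes of low genes. Most of the called ZNF genes fell. Of the 123 tested members, 42 were lower in siPSCA (34.1%, against 24.2% of all tested genes), 17 were higher (13.8%, against 26.6%) and 64 were not called. The share called in either direction was 48.0%, close to the 50.7% over all genes. The median log2 fold change of the tested members was -0.17, with 91 below 0 and 32 above, and that of all tested genes was 0.01. In 61 tested members every siPSCA library lay below every NC library (49.6%, against 30.8% of all tested genes), and in 22 every siPSCA library lay above (17.9%, against 33.7%). All 59 called members were among these. In bulk RNA, fewer cells that express a gene and less RNA per cell cannot be told apart.

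The size of the called changes differed by direction in means that include NC replicate 3. That library was the lowest NC library in all 17 higher members and the highest in 28 of the 42 lower members. The ratio of mean FPKM, siPSCA to NC, ran from 1.37 to 2.88 with a median of 2.08 in the 17 higher members and from 0.406 to 0.834 with a median of 0.673 in the 42 lower members. Summed over the 42, FPKM was 222, 226 and 240 with NC siRNA and 150, 155 and 159 with siPSCA. Summed over the 17, it was 67.7, 60.6 and 34.6 with NC siRNA and 118, 121 and 109 with siPSCA. These sums describe lists chosen by the same values and are no test. All chromosome 19 ZNF genes together took 0.287%, 0.286% and 0.300% of the reads on genes with NC siRNA and 0.246%, 0.256% and 0.255% with siPSCA, so that the groups did not overlap. Without NC replicate 3, 17 members were higher and 34 lower, of which 17 and 33 were called before. Over all 13796 tested genes that fit called 4014 higher and 3411 lower, against 3668 and 3333 with all 6 libraries. Among the members, leaving out siPSCA replicate 1 gave 9 higher and 26 lower, and leaving out siPSCA replicate 2 gave 10 and 29. The calls over all genes then fell to 2299 higher and 2328 lower and to 2402 and 2332.

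ZNF160, a KRAB protein with 20 fingers, fell most. Its FPKM was 7.46, 7.71 and 8.64 with NC siRNA and 3.05, 3.05 and 3.56 with siPSCA, a log2 fold change of -1.08 ± 0.08 (SE, adjusted p = 0.000601). The highest siPSCA library was thus below the lowest NC library by a wide margin, and the reads behind the values numbered 439 to 1267 per library. ZNF699 was at 3.09, 3.42 and 4.15 FPKM with NC siRNA and at 1.47, 1.96 and 1.38 with siPSCA (-0.81 ± 0.13, adjusted p = 0.00383). ZNF808, a KRAB protein known for repressing a family of endogenous retroviral elements during pancreas development, was at 3.52, 3.90 and 4.61 FPKM with NC siRNA and at 1.96, 2.01 and 1.98 with siPSCA (-0.74 ± 0.09, adjusted p = 0.00198). Its siPSCA libraries lay within 0.06 FPKM of each other, and 16.5% of its 75-base stretches recur elsewhere, most often in ZNF611, so its reads are less certain than those of ZNF160 and ZNF699, which share none.

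The next 3 falls were also KRAB genes. ZNF805 had 4.48, 4.12 and 4.19 FPKM with NC siRNA and 2.62, 1.67 and 2.50 with siPSCA (-0.70 ± 0.13, adjusted p = 0.00599). Its neighbour ZNF264, the next member before it on the chromosome, went from 6.85, 6.56 and 7.99 FPKM to 4.18, 3.97 and 4.16 (-0.67 ± 0.08, adjusted p = 0.00169). ZNF558 went from 6.62, 7.13 and 6.89 to 3.86, 4.26 and 3.88 FPKM (-0.66 ± 0.06, adjusted p = 0.000945). In none of the 6 largest falls did the groups overlap, and all 6 remained called whichever library was left out.

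The 6 largest rises were genes without KRAB letters and with few or many fingers. ZNF358 had 3.97, 5.11 and 1.26 FPKM with NC siRNA and 9.40, 10.3 and 9.23 with siPSCA (log2 fold change 1.38 ± 0.35, adjusted p = 0.0196). The siPSCA libraries lay close together, whereas NC replicate 3 was far below the other NC libraries. Its call was lost without any of the siPSCA libraries (adjusted p up to 0.063), and 20.2% of its exonic bases overlap another gene on the same strand. ZNF865, with 20 fingers, had 4.56, 3.24 and 1.19 FPKM with NC siRNA and 8.80, 8.89 and 8.22 with siPSCA (1.37 ± 0.32, adjusted p = 0.0148). ZNF428, in which only 1 finger was found, had 6.34, 4.87 and 2.32 FPKM with NC siRNA and 12.5, 13.6 and 10.7 with siPSCA (1.34 ± 0.29, adjusted p = 0.0106). For ZNF428, 27.6% of the exonic bases overlap a gene on the other strand, and whether the counting used strand is not given in the sources used here.

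The other 3 rises had the same shape, with NC replicate 3 lowest. ZNF579 was at 6.56, 5.36 and 2.11 FPKM with NC siRNA and at 12.9, 12.7 and 11.1 with siPSCA (1.31 ± 0.32, adjusted p = 0.0165). ZNF787 went from 6.37, 5.21 and 2.93 to 11.5, 11.9 and 10.3 FPKM (1.11 ± 0.23, adjusted p = 0.00899). ZNF296, known as a partner of KLF4 in pluripotent cells, had 2.80, 2.24 and 1.33 FPKM with NC siRNA and 5.39, 5.26 and 3.84 with siPSCA (0.92 ± 0.20, adjusted p = 0.0118). Calls were lost for ZNF865 without siPSCA replicate 1 (adjusted p = 0.052), and for ZNF579 without siPSCA replicate 1 or 2 (adjusted p up to 0.058). NC replicate 3 was the lowest NC library in all 17 called higher members, and the highest in 28 of the 42 called lower members. Without it the log2 fold changes of the 6 largest rises were smaller, at 0.72 to 1.01, and all 6 were called.

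The 4 most highly expressed members differed in direction. ZNF146 (OZF), a protein that consists almost wholly of zinc fingers, had the highest level, at 48.0, 48.8 and 52.8 FPKM with NC siRNA and 34.4, 33.6 and 37.2 with siPSCA (-0.50 ± 0.06, adjusted p = 0.00195). ZNF121 was at 23.3, 23.1 and 21.7 FPKM with NC siRNA and at 15.7, 15.9 and 16.1 with siPSCA (-0.49 ± 0.05, adjusted p = 0.00118). Both fell to about the same degree, at 0.703 and 0.700 of the NC mean. ZNF317, the third in level and a KRAB gene, was at 12.5, 12.6 and 14.5 FPKM with NC siRNA and 12.9, 13.6 and 12.8 with siPSCA, with overlapping groups (-0.01 ± 0.07, adjusted p = 0.918). ZNF579, described above, was the fourth.

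Among members with a known role in silencing retroelements, ZNF808 was described above. ZNF91, which represses SVA elements, fell from 1.59, 1.77 and 1.79 FPKM to 0.853, 0.898 and 0.950 (-0.52 ± 0.09, adjusted p = 0.00514). ZNF587, a repressor of endogenous retroviruses, had 5.51, 5.58 and 5.67 FPKM with NC siRNA and 4.70, 4.46 and 4.19 with siPSCA (-0.27 ± 0.06, adjusted p = 0.0105). As with ZNF428, part of the exonic bases of ZNF587 (33.3%) overlap a gene on the other strand. Its close relative ZNF417 had the same log2 fold change of -0.27 ± 0.10 but overlapping groups and no call (adjusted p = 0.0665). These are not independent values, since 30.4% of the 75-base stretches of ZNF417 and 14.1% of those of ZNF587 recur elsewhere, most often in each other. ZNF611, another gene that acts on SVA elements, just passed (-0.31 ± 0.11, adjusted p = 0.0496) and lost its call whichever library was left out. ZNF93 and ZNF534 had no read.

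Other members with known roles did not pass the test or were too low to be tested. ZNF274, which recruits SETDB1 to ZNF genes themselves, was at 1.99, 2.09 and 1.96 FPKM with NC siRNA and 1.77, 1.96 and 1.73 with siPSCA (-0.10 ± 0.08, adjusted p = 0.313). ZNF304, a KRAB gene with 16 fingers, was at -0.16 ± 0.12 on the log2 scale (adjusted p = 0.298), and ZNF224, a partner of WT1, at -0.14 ± 0.09 (adjusted p = 0.247). For ZNF224, 40.5% of the exonic bases overlap a gene on the other strand. ZNF473 (ZFP100), which takes part in histone mRNA processing and has no KRAB letters by the pattern used, had -0.18 ± 0.07 (adjusted p = 0.0866), and ZNF649 had -0.26 ± 0.10 (adjusted p = 0.0625). In ZNF473 and ZNF649 every siPSCA library was nonetheless below every NC library. ZNF350 (ZBRK1), a partner of BRCA1, was covered by 62, 75 and 63 reads with NC siRNA against 46, 63 and 42 with siPSCA, and was under the FPKM minimum. ZNF541, a gene of meiotic germ cells, never had more than 2 reads, and ZNF568 had none.

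Direction followed base composition. The 17 higher members had an exonic GC content of 55.0% to 71.0% (median 65.4%) and the 42 lower members one of 38.5% to 49.2% (median 42.3%), so the ranges do not overlap. The last base of the codons differed more, with a median of 80.4% G or C in the higher and 37.0% in the lower members. Of the 98 tested members under 50% GC, 42 were lower (42.9%) and 0 higher, with the groups apart upward in 3, while of the 25 at 50% GC or more 17 were higher (68.0%) and 0 lower, with no member apart downward. All tested genes under 50% GC were lower in 39.6% and higher in 7.11%, and those at 50% or more were higher in 49.6% and lower in 5.94%. The Spearman correlation between log2 fold change and GC content was 0.67 across the 123 members and 0.67 across 13792 tested genes. Genes share the libraries and are not independent replicates, so these are descriptions. On the rest of chromosome 19, 675 other protein-coding genes were tested, with a median GC content of 60.8%. Of those, 434 were higher (64.3%) and 27 lower (4.0%), with a median log2 fold change of 0.47. ZNF genes of other chromosomes had a median GC content of 47.4%. Of 191 tested, 38 were higher (19.9%) and 67 lower (35.1%), with a median of -0.13. Their share of falls was thus close to the 34.1% of the chromosome 19 members, of which 13.8% were higher.

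The protein subgroups split along the same line. Of 96 tested members with KRAB letters, 35 were lower and 2 higher, with a median log2 fold change of -0.19. The 2 that rose, ZNF324 (0.54 ± 0.12, adjusted p = 0.0135) and ZNF324B (0.39 ± 0.09, adjusted p = 0.0155), are near neighbours with 60.3% and 60.8% GC, and 30.3% of the stretches of ZNF324 recur elsewhere. Of 27 tested members without KRAB letters, 15 were higher and 7 lower, with a median of 0.58. The 7 that fell were ZNF121, ZNF714, ZNF507, ZNF146, ZNF83, ZNF134 and ZNF329, all under 50% GC. Of all tested genes under 50% GC, 39.6% were lower. Within the members under 50% GC, 35 of 89 with KRAB letters (39.3%) and 7 of 9 without (77.8%) were lower, with medians of -0.22 and -0.34. These groups also differed in median GC content (44.1% and 42.3%) and in median level (2.58 and 5.09 FPKM). Domain, composition and level therefore cannot be told apart among them. Of all tested genes at 50% GC or more, 49.6% were higher. Within the members at 50% or more, 2 of 7 with KRAB letters (28.6%) and 15 of 18 without (83.3%) were higher, with medians of -0.01 and 0.85. These 2 groups also differed in GC content, with a median of 53.4% and 65.7%, so domain and composition cannot be told apart there. By number of fingers, 14 of 38 members with 9 or fewer were higher and 9 lower. With 10 to 14 fingers 0 of 48 were higher and 19 lower, and with 15 or more 3 of 37 were higher and 14 lower. The median GC content of these classes was 50.4%, 45.3% and 43.7%. Among tested members with KRAB letters, the same classes had 2 of 22, 0 of 41 and 0 of 33 higher. In them 7, 14 and 14 were lower, with medians of -0.18, -0.21 and -0.26. Of all tested genes, 26.6% were higher and 24.2% lower.

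With a smooth trend on GC content and gene length removed from each library before the same test, 8 members were higher (6.50%, against 21.6% of all genes in that fit) and 17 lower (13.8%, against 18.3%), and the median log2 fold change of the 123 was -0.03. Of the 42 falls, 15 remained called, namely ZNF160, ZNF805, ZNF699, ZNF558, ZNF264, ZNF808, ZNF460, ZNF816, ZNF221, ZNF83, ZNF791, ZNF329, ZNF134, ZNF146 and ZNF28. Of the 17 rises, 5 remained called, namely ZNF428, ZNF579, ZNF787, ZNF865 and ZNF581. ZNF160 kept most of its change at -0.93 (adjusted p = 0.000235), and ZNF805, at 49.2% GC, was at -0.75 (adjusted p = 0.00446). ZNF428 was at 0.81 (adjusted p = 0.0118) and ZNF579 at 0.63 (adjusted p = 0.0298), whereas ZNF358 was at 0.56 (adjusted p = 0.0556), ZNF865 at 0.36 (adjusted p = 0.0461) and ZNF296 at 0.13 (adjusted p = 0.304). ZNF146 was at -0.24 and called, ZNF121 at -0.16 and ZNF91 at -0.13, neither of them called. The sign changed in 5 of the 17 rises and 6 of the 42 falls. What part of the differences arose in the cells and what part in the making of the libraries was not tested.

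By position, members less than 1 Mb apart were joined into 16 clusters, 7 of which held at least 5 tested members. The stretch from ZNF175 to ZNF331 (51.6 to 53.6 Mb of GRCh38) held 12 of the 42 falls and no rise. Of its 40 members, 39 with KRAB letters, 6 had no read and 21 were tested, of which 12 were lower and 0 higher. All 21 tested members had a log2 fold change below 0 (median -0.32), and in 18 the groups did not overlap, downward each time. Their median GC content was 42.3%. Of all 7464 tested genes under 50% GC, 39.6% were lower, and in 3706 the groups were apart downward. It holds ZNF160, ZNF808, ZNF611 and also ZNF83 (6.35, 7.22 and 6.96 FPKM with NC siRNA, 3.65, 3.90 and 4.70 with siPSCA, -0.63 ± 0.09, adjusted p = 0.00327). ZNF468 lies here too, with 53.2% of its stretches recurring elsewhere, most often in ZNF320. With the GC trend removed, 5 of the 21 were lower and 1 higher, against 18.3% and 21.6% of all genes, and the median was -0.07. Without that removal, the median over all members with a read was -0.20. Without NC replicate 3, 8 were lower.

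A short stretch next to it went the other way. With a gap of 0.5 Mb in place of 1 Mb, the last cluster of the long arm separated into 16 members from ZNF628 to ZNF835 (55.5 to 56.7 Mb) and 43 from ZNF264 to ZNF446 (57.2 to 58.5 Mb). In the first, 9 members were tested and 8 of them rose (88.9%), namely ZNF628, ZNF579, ZNF865, ZNF784, ZNF580, ZNF581, ZNF787 and ZNF444. Of all tested genes, 26.6% were higher and 24.2% lower, and of those at 50% GC or more 49.6% and 5.94%. The ninth, ZNF524, had a log2 fold change of 0.92 and did not pass. The median over the 9 was 0.86 at a median GC content of 66.0%. Without NC replicate 3 it was 0.70 and 8 were higher. With the GC trend removed it was 0.23 and 4 of the 9 were higher, against 21.6% of all genes in that fit. ZNF580 and ZNF581 overlap each other in position, and 15.1% and 23.4% of their exonic bases overlap another gene on the same strand, so their reads are not independent. The 7 members that follow these 9 along the chromosome, from ZNF582 to ZNF835, had no read. In the second, 28 were tested, 3 rose (ZNF837, ZNF324B and ZNF324) and 7 fell, among them the neighbours ZNF264, ZNF805 and ZNF460, with a median of -0.11. Joined at 1 Mb, the whole cluster had 37 tested members, 11 higher and 7 lower, with a median of 0.05, and the median was -0.06 with the GC trend removed and also below 0 without NC replicate 1 (-0.010), NC replicate 2 (-0.030) or siPSCA replicate 1 (-0.0018).

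In the stretch from ZNF101 to ZNF254 (19.7 to 24.1 Mb), known for the expansion of its genes in primates, 19 of 37 members had no read and 10 were tested. Of these, 5 were lower and 0 higher, and all 10 had a log2 fold change below 0 (median -0.26). The largest change was that of ZNF91, and the others called were ZNF14, ZNF714, ZNF431 and ZNF708. The median GC content was 40.2% among the tested ones, the lowest of the 7 clusters with at least 5 tested members, and with the GC trend removed the median was 0.05 and none was called in either direction. Without NC replicate 3, 3 of the 10 were lower. From ZNF565 to ZNF573 (36.2 to 37.8 Mb), 8 of 26 members had no read and only 5 were tested, of which 4 were lower (ZNF146, ZNF567, ZNF585B and ZNF607), with a median of -0.36. With the GC trend removed the median was -0.18 and only ZNF146 was called there. The median was also -0.18 over the 12 members with a mean of at least 0.1 FPKM and -0.13 over all 18 with a read, and lay at -0.53 with a pseudocount of 0.1.

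In 2 of the other 3 clusters members went both ways. Of all tested genes, 26.6% were higher and 24.2% lower, and of those under 50% GC 7.11% and 39.6%. From ZNF557 to ZNF846 (7.07 to 9.79 Mb), 11 of 16 members were tested (median -0.14, and -0.02 with the GC trend removed). There ZNF358 and ZNF414 were higher (18.2%) and ZNF558, ZNF699, ZNF559, ZNF121 and ZNF562 lower (45.5%). From ZNF653 to ZNF791 (11.5 to 12.6 Mb), 10 of 26 were tested, with 0 higher and 3 lower (30.0%). Of the 10, 9 had a log2 fold change below 0 (median -0.19). That median was -0.07 without NC replicate 3, -0.03 with the GC trend removed and -0.04 over all members with a read. The largest fall there was that of ZNF791, at 8.62, 8.33 and 10.1 FPKM with NC siRNA and 5.69, 5.68 and 6.07 with siPSCA (-0.55 ± 0.08, adjusted p = 0.00314). From ZNF575 to ZNF296 (43.5 to 45.1 Mb), 14 of 24 were tested, with ZNF576, ZNF428 and ZNF296 higher (21.4%) and ZNF221 and ZNF112 lower (14.3%). The median was -0.08, but 0.09 with the GC trend removed and 0.0075 without NC replicate 3. The risers of this last cluster lay near its ends and had no KRAB letters, and both falls were KRAB genes.

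The partners of KRAB proteins moved in both directions. Of a list of 34 genes for TRIM28 and the factors that act with it, all 34 were tested, 12 were higher (35.3%, against 26.6% of all tested genes), 12 lower (35.3%, against 24.2%) and 10 not called, with a median log2 fold change of -0.02. TRIM28 itself, which lies at the end of chromosome 19 beyond the last ZNF cluster, was at 155, 155 and 135 FPKM with NC siRNA and 216, 207 and 202 with siPSCA (0.49 ± 0.07, adjusted p = 0.00279), and at -0.01 with the GC trend removed (adjusted p = 0.917). SETDB1, the histone methyltransferase, was at 7.96 ± 0.641 and 7.55 ± 0.189 FPKM and did not pass (adjusted p = 0.446). Its cofactor ATF7IP and the heterochromatin proteins CBX3 and CBX5 fell by 0.20, 0.28 and 0.28 on the log2 scale, and CBX1 did not pass. CBX1 was at 74.8, 80.7 and 106 FPKM in NC replicates 1 to 3. Without NC replicate 3 it was called higher (0.16, adjusted p = 0.0262 by limma). With the GC trend removed ATF7IP was instead higher (0.16, adjusted p = 0.0235), and CBX3 (1.6e-05, adjusted p = 0.9997) and CBX5 (0.09, adjusted p = 0.123) did not pass. The remodeller ATRX was at 9.58 ± 0.381 FPKM with NC siRNA and 4.68 ± 0.941 with siPSCA, without overlap (-0.91 ± 0.13, adjusted p = 0.00271), and MORC3 fell as well (-0.73 ± 0.08, adjusted p = 0.00166). Both were still lower with the GC trend removed, at -0.44 and -0.38. The largest rises of the list were those of MBD3 (0.84 ± 0.20, adjusted p = 0.0157), GATAD2A (0.71 ± 0.07, adjusted p = 0.00104) and MTA2 (0.66 ± 0.06, adjusted p = 0.00077). With the trend removed GATAD2A (0.46) and MTA2 (0.47) were still higher, and MBD3 did not pass (0.22, adjusted p = 0.0611). Of the DNA methylation factors, DNMT1 (0.44 ± 0.04, adjusted p = 0.000961), UHRF1 (0.59 ± 0.07, adjusted p = 0.00156) and DNMT3B (0.32 ± 0.08, adjusted p = 0.0183) rose, and DNMT3A did not pass. With the trend removed DNMT1 (0.32) and UHRF1 (0.28) were still higher, and DNMT3B did not pass (0.12, adjusted p = 0.299). In that fit 10 of the 34 were higher (29.4%, against 21.6% of all genes) and 5 lower (14.7%, against 18.3%). Without NC replicate 3 and with no trend removed, 13 of the 34 were higher and 12 lower, beside 4014 and 3411 of all 13796 tested genes.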

How the data were processed

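RNA of HCT116SCs treated with NC siRNA (n = 3) or siPSCA (n = 3) was sequenced in paired-end mode, and the authors deposited FPKM values per gene, with GRCh38 named in the submitters' processing notes. The aligner, the counter and the use of strand are not given in the sources used here. Each value was a whole number of reads within 0.1 once multiplied by gene length and library total (100% of values), which gave the reads quoted. log2(FPKM + 1) of genes averaging 1 FPKM or more was fitted with limma 3.58.1 (R 4.3.3, trended prior variance), which moderates the variance of each gene over all genes, and p-values were adjusted by Benjamini-Hochberg over all 13796 genes. A permutation of 3 against 3 libraries could not go below p = 0.1. The script was tested on simulated data, and the counts simulated for the limma step had no dependence on GC content. That run therefore says nothing of how the GC deviations between these libraries affect the calls.

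Exonic GC content, coding sequences, overlaps and shared 75-base stretches came from GENCODE 29. The GC and length trend was a natural spline (5 degrees of freedom each) per library. A 300-base promoter window was matched by symbol for 217 members. Alternatives were another pseudocount, TPM, other minima, limma-voom on recovered reads, a replicate block, and leaving out each library.

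The members named were the 6 largest rises and 6 largest falls among called members with groups apart, the 4 highest in mean FPKM, a list of known roles, and the called member with the largest change in each cluster with at least 5 tested. Others named were chosen after their values were seen, as the other called members of a cluster or subgroup. The members and lists were chosen with earlier results of these data known. Titles of siPSCA replicates 2 and 3 name another cell line number than the remaining labels, and the latter were followed. Intervals between libraries cover no uncertainty of the read assignment.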

Additional observations from a re-analysis of the deposited data

How the results depend on the processing

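Of 390 log2 fold changes of named members under 15 alternatives, 351 stayed on their side of the threshold, 34 lost and 5 gained a call, and none of the 18 called ones among these 26 genes changed sign. The counts were 17 higher and 42 lower with a median of -0.17. The median was -0.23 with a pseudocount of 0.1 and -0.25 with TPM. With no minimum on FPKM it was -0.11 and 11 members were higher. With the GC and length trend removed, 8 were higher and 17 lower (median -0.031), with the replicate block as well 5 and 15 (-0.031), and without NC replicate 3 as well, an alternative chosen after seeing the data, 7 and 19 (-0.025). Leaving out 1 library at a time gave 9 to 19 higher, 26 to 35 lower and medians of -0.184 to -0.134. The 7 sign changes among named members without a call were in ZNF224 and ZNF317. The median of the stretch from ZNF628 to ZNF446 (0.050) turned to -0.056 with a minimum of 0.1 FPKM, -0.040 with no minimum and -0.056 with the trend removed, with or without the block, and to -0.027 without NC replicate 3 as well. Leaving out 1 library moved it between -0.0298 and 0.0488. That of ZNF101 to ZNF254 (-0.26) turned to 0.045 with the trend removed, with or without the block, and to 0.047 without NC replicate 3 as well. That of ZNF575 to ZNF296 (-0.083) turned to 0.087 and 0.13 in the same fits and lay between -0.137 and 0.00753 with 1 library left out. The cause was not tested.

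The labels give both groups replicate numbers 1 to 3. The deviations of same-numbered libraries correlated at 0.096, 0.013 and 0.13, so the numbers were not taken to pair the libraries. Differently numbered libraries were not compared in this way. The correlation of deviation with GC content was negative in replicate 3 of both groups (-0.57 in NC, -0.39 in siPSCA). Whether libraries of the same number shared a batch was not tested. With the replicate block alone, 17 members were higher and 35 lower, of which 17 and 34 were called before. A list of 126 untested members limits every count here, and reads cannot tell an absent transcript from one at or below the floor of 3 reads.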
